A study of Mus musculus with 32 samples.

Results

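The genes described here are 10 immediate early genes outside the AP-1 family, chosen by name: the transcription factor genes Egr1, Egr2, Egr3, Nr4a1 and Nr4a2, and the genes Ier2, Ier3, Dusp1, Zfp36 and Btg2. They are 10 of the 24421 rows of the deposited table of raw gene counts, and all 10 were among the 14154 genes that passed the filter on low counts. The study sequenced RNA of 8 fractions of bone marrow from female mice of the C57BL/6 strain, aged 10 weeks in the Young groups and 20 months in the Aged groups, with 2 libraries in each of the 16 groups and 32 libraries in all. The labels name no engineered allele and no treatment in any group.

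The fractions were sorted on surface antigens. Hematopoietic stem cells (HSCs) and the multipotent progenitors (MPPs) were lineage-negative, Sca-1+ and c-kit+, with HSCs being CD34- CD150+ CD48- Flt3-, MPP1 CD34+ CD150+ CD48- Flt3-, MPP2 CD150+ CD48+ Flt3-, MPP3 CD150- CD48+ Flt3- and MPP4 CD150- CD48+ Flt3+. Granulocyte-macrophage progenitors (GMPs) were Sca-1- c-kit+ CD34+ with Fc gamma receptors, megakaryocyte-erythrocyte progenitors (MEPs) lacked CD34 and those receptors, and common lymphoid progenitors (CLPs) had the IL-7 receptor with low Sca-1 and c-kit. HSCs and MPPs shared 1 staining panel, GMPs and MEPs another, and CLPs had their own, so a fraction and the handling of its panel cannot be told apart. The libraries held 11237384 to 17723245 counts, with a median of 13489610. The study describes marrow pooled by age and sorted in duplicate in one place and biological duplicates elsewhere. Errors and p-values here rest on the spread between the 2 libraries of a group, which may be technical. That spread was estimated for each gene over all 16 groups together, so a group whose own libraries differ more can have a small error.

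Immediate early genes are transcribed within minutes of a stimulus, without new protein synthesis, when kinases act on factors already bound to their promoters. Serum response factor at CArG boxes and CREB at cyclic AMP response elements are the best known of these. Several of the products close the response again: Dusp1 is a phosphatase that switches off MAP kinases, Zfp36 (tristetraprolin) binds AU-rich messenger RNAs and speeds their decay, and Btg2 restrains proliferation and recruits deadenylases. In hematopoiesis, Egr1 is known as a zinc finger factor that keeps stem cells quiescent and in the niche, and Nr4a1 is an orphan nuclear receptor that limits their division. The same genes are also known to be induced by tissue dissociation and cell sorting, and the part of that in the values below was not tested.

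Promoters are shown for 5 of the genes, because they carry the letters through which such inputs are known to act and because these genes took different courses with age. Since the 5 were picked for their motifs, the shares of all promoter windows given below only describe how common a motif is and test no enrichment. RefSeq promoters (GRCm38.p6) were searched for 7 of the 10 genes, and none is given here for Egr1, Egr3 and Ier2. The 250 bases before the start are written 5′ to 3′ on the strand of the gene, with matches in capitals. The motifs searched on both strands were the strict CArG box (CC, 6 of A or T, GG), the cyclic AMP response element TGACGTCA and its core TGACG, which lies within it, the EGR site GCGTGGGCG and the AP-1 site TGANTCA.
Nr4a1, chr15:101266596-101266845, plus strand: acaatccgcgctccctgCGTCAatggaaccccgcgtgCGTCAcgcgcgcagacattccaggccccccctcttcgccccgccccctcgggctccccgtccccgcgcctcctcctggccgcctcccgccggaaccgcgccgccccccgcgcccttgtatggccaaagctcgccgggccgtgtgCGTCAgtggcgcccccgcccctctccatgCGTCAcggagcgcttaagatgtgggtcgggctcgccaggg
Egr2, chr10:67537619-67537868, plus strand: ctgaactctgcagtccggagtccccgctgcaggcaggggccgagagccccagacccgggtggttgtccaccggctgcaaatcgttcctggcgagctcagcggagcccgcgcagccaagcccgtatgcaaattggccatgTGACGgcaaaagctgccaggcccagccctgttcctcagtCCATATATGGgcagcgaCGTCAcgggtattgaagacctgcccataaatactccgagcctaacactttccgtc
Dusp1, chr17:26508473-26508722, minus strand: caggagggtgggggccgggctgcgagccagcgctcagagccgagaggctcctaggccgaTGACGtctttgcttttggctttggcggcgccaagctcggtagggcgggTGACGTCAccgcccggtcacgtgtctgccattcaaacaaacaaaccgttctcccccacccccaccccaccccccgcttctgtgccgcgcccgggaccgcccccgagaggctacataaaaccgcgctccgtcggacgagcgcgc
Btg2, chr1:134079156-134079405, minus strand: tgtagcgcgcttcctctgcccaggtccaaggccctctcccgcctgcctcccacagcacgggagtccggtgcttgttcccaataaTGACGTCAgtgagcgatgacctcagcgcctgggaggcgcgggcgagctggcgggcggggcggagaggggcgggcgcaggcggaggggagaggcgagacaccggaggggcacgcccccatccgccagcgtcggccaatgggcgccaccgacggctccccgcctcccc
Zfp36, chr7:28379229-28379478, minus strand: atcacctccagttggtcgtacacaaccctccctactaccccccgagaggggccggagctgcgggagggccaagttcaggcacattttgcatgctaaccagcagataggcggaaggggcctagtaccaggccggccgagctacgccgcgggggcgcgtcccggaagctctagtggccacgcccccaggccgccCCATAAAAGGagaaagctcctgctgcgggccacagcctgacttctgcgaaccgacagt

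Dusp1 and Btg2 each held a whole cyclic AMP response element, whose first base lay 143 bases before the start in Dusp1 and 166 in Btg2. This motif was present in 1.55% of the 32841 promoter windows of the same length. Nr4a1 held 4 copies of the core, at 233, 213, 69 and 40 bases before the start, and the core was present in 17.8% of windows. Egr2, shown for 1 of its 5 RefSeq starts, held a CArG box 72 bases before that start and Zfp36 one 58 bases before its start, against 1.47% of windows. The other Egr2 windows were not all alike. The one from chr10:67535249 had no match of any motif, and the one from chr10:67537316 had a CArG box but no core. The EGR site (0.536% of windows) and the AP-1 site (6.75%) were not found in the printed letters. In the window of Nr4a2 there were 4 copies of the core and in that of Ier3 no match of any of the 5 motifs.

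Of the members without a printed promoter, 4 gene bodies, on GRCm38 in the GENCODE annotation, were Egr3 at chr14:70077203-70082614, Nr4a2 at chr2:57106830-57124003, Ier2 at chr8:84661331-84662852 and Ier3 at chr17:35821684-35822923. All 10 members are annotated as protein coding. In GENCODE an antisense gene, Gm44710, overlaps Zfp36, and the model of Dusp1 runs across Ergic1 and a pseudogene on the other strand and across a sense intronic gene and a pseudogene on its own. In RefSeq, whose model of Dusp1 is shorter and overlaps no gene, Egr2 overlaps Gm32255 and Nr4a2 overlaps LOC105244150. The use of strand in counting was not stated, so reads of such pairs cannot be told apart.

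The summed level of the 10 genes was highest in HSCs and MPPs at both ages, and in young cells lowest in GMPs and MEPs. Levels are given as normalised CPM, counts scaled to library totals corrected with TMM factors. Summed over the 10 genes they reached 11648 and 12017 in the young HSC libraries, 11136 and 11688 in young MPP4 and 2591 and 2613 in young CLPs, against 225 and 238 in young GMPs and 137 and 149 in young MEPs. In Aged the sums were 750 and 1399 in CLPs, 760 and 855 in GMPs and 130 and 148 in MEPs, so an aged CLP library lay below both aged GMP libraries. All 10 differed among the 8 fractions at both ages in edgeR's quasi-likelihood test (adjusted p at most 7.31e-08 in Young and 6.35e-06 in Aged), where 86.9% and 85.5% of all genes tested did so.

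**Figure D1:**
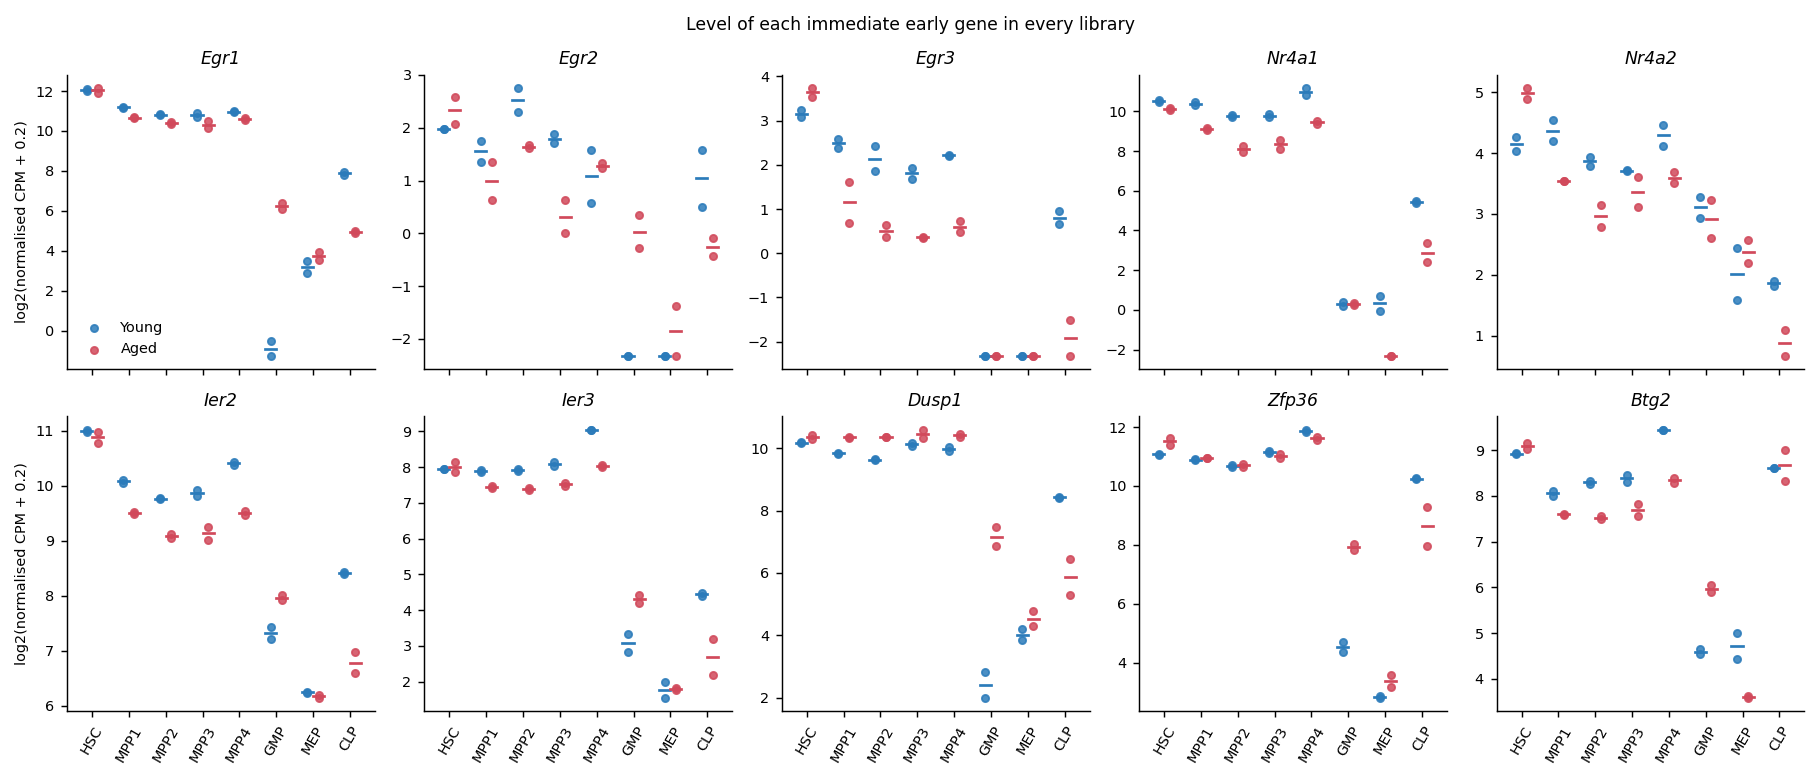
Level of each of the 10 genes in every library, as log2 of normalised CPM plus 0.2 (vertical axis, 1 scale per panel), in the 8 fractions (horizontal axis), with Young in blue and Aged in red; points are libraries and bars are the means of 2. The aged GMP points sit far above the young ones for Egr1, Dusp1 and Zfp36, and the aged CLP points below the young ones for all but Btg2.

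Levels between genes were compared per kilobase of exon, with exon lengths from GENCODE. With these lengths Ier2 had the highest level in young HSCs, 1338 CPM per kb, followed by Egr1 with 939 and Zfp36 with 622. Nr4a1 came next with 427, then Dusp1 with 352, Ier3 with 219 and Btg2 with 177. Egr2, Egr3 and Nr4a2 were far lower, at 1.09, 1.98 and 4.35 CPM per kb. The lengths of Egr1, Zfp36 and Dusp1, 4484, 3470 and 3311 bases, exceed the whole RefSeq spans of these genes, introns included. Shorter models would raise their values per kb, so the order among the abundant members depends on the gene model. The order with other lengths was not tested. Egr1 ranked the 5th of all 24421 genes by mean CPM in young HSCs. Thus the 3 paralogs of the EGR family and the pair of NR4A genes each had 1 abundant member in these cells.

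The order of the fractions differed between members. In Young, Egr1, Egr3, Ier2 and Dusp1 were highest in HSCs, Nr4a1, Ier3, Zfp36 and Btg2 in MPP4, Nr4a2 in MPP1 and Egr2 in MPP2. The first place was apart from the second in the test for Egr1, Ier2, Ier3 and Btg2, and the step did not pass for Dusp1 (adjusted p = 0.902), Nr4a2 (0.886), Egr2 (0.272), Egr3 (0.139), Zfp36 (0.0419) and Nr4a1 (0.0384). Of the 7 steps between neighbours in each order, 24 of 70 passed the test in Young and 29 of 70 in Aged. Over the same pairs of fractions, 31.3% and 31.8% of the tests of all genes passed. These rates are not alike, because the steps were picked as neighbours in a member's own order and need not be neighbours for other genes. Egr1 fell from HSCs to MPP1 in Young (adjusted p = 5.67e-05), and the steps MPP1 to MPP4 (0.300), MPP4 to MPP2 (0.542) and MPP2 to MPP3 (0.994) did not pass. Not every member was low in CLPs. Btg2, at 392 CPM in young CLPs, stood between HSCs (485 CPM, adjusted p of the step 0.0756) and MPP3 (334 CPM, 0.202). Zfp36 in young CLPs (1218 CPM) came next after MPP2 (1648 CPM, 0.101) and Egr2 (2.00 CPM) next after MPP4 (2.04 CPM, 0.964).

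With age most of the 10 genes rose in GMPs and most fell in CLPs. In GMPs 7 of the 10 rose and 0 fell, where 9.93% of all genes tested rose and 8.97% fell. In CLPs 7 of the 10 fell and 0 rose, where 4.73% of all genes fell and 5.71% rose. Egr1, Dusp1, Zfp36, Ier2 and Ier3 were among the 7 in both. The median log2 fold change of the 10 genes was 1.31 in GMPs and -1.67 in CLPs, against a median of 0 over all genes in each.

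The largest of these changes was that of Egr1 in GMPs. It had 3 and 7 counts in the young GMP libraries, which is 0.214 and 0.484 CPM, and 771 and 932 counts, 69.0 and 83.0 CPM, in the aged ones. The young libraries thus lay near the level of 3 counts that a count of 0 allows, and no aged library came near them. The log2 fold change was 7.72 (SE 0.26, adjusted p = 1.62e-14). It ranged from 7.26 to 8.39 with a library left out, 8.39 being without the second young library, which holds the 7 counts. The SE, taken from the test statistic, is smaller than the counting error of 3 and 7 counts.

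The genes of the feedback phosphatase and of the decay factor came next. Dusp1 was at 3.78 and 6.91 CPM in young GMPs and at 178 and 116 in aged ones, a log2 fold change of 4.77 (SE 0.30, adjusted p = 8.33e-10). Zfp36 was at 20.4 and 25.8 CPM and then at 259 and 228, a log2 fold change of 3.40 (SE 0.25, adjusted p = 8.23e-09). In both genes the aged GMP libraries, although far above the young ones, stayed below every HSC and MPP library.

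The other rises in GMPs were smaller. Btg2 went from 24.9 and 23.1 CPM to 59.1 and 66.2 (log2 fold change 1.38, SE 0.17, adjusted p = 3.68e-06). Ier3, a regulator of cell survival, went from 6.91 and 9.81 CPM to 21.1 and 18.3 (1.24, SE 0.19, adjusted p = 3.84e-05). Ier2, the member with the highest level in young GMPs, went from 173 and 148 CPM to 259 and 241 (0.64, SE 0.10, adjusted p = 5.64e-05). Egr2 had 0 counts in both young libraries and 7 and 12 in the aged ones, which is at least 4.03-fold higher against a floor of 3 counts per library (adjusted p = 0.000817).

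The NR4A genes did not follow in GMPs. Nr4a1 had 13 and 16 counts in young and 12 and 11 in aged GMPs, all close to 1 CPM, a log2 fold change of 0.01 with an SE of 0.53. Nr4a2 was at 7.48 and 9.54 CPM in Young and at 9.13 and 5.88 in Aged (log2 fold change -0.18, SE 0.26, adjusted p = 0.675). Egr3 had 0 counts in all 4 GMP libraries, which allows up to 3 counts in each.

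In CLPs Egr1 was at 245 and 222 CPM in the young libraries and at 29.5 and 31.1 in the aged ones, a log2 fold change of -2.95 (SE 0.15, adjusted p = 9.88e-12). Nr4a1 was at 45.2 and 42.0 CPM and then at 10.2 and 5.05 (-2.52, SE 0.22, adjusted p = 1.09e-07). Egr3 had 21 and 17 counts in Young and 0 and 2 in Aged, a ratio of 0.0489 with a 95% counting interval of 0.00571 to 0.189 (adjusted p = 0.000249). All 3 are transcription factor genes.

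Dusp1 fell in CLPs from 340 and 350 CPM to 86.2 and 39.2 (log2 fold change -2.46, SE 0.25, adjusted p = 4.99e-07), and Zfp36 from 1201 and 1235 CPM to 624 and 250 (-1.48, SE 0.23, adjusted p = 8.25e-05). Ier2 fell from 338 and 346 CPM to 126 and 96.2 (-1.62, SE 0.10, adjusted p = 3.31e-10) and Ier3 from 22.1 and 21.1 to 8.88 and 4.38 (-1.71, SE 0.19, adjusted p = 1.95e-06). Btg2 did not share this course: it was at 392 and 391 CPM in Young and at 512 and 322 in Aged, and the aged libraries lay on both sides of the young ones (0.09, SE 0.15, adjusted p = 0.762). Egr2 (-1.63, adjusted p = 0.0434) and Nr4a2 (-1.04, adjusted p = 0.0324) did not pass the threshold of 0.01.

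The 2 aged CLP libraries differed from each other in these genes. The second was lower than the first for 6 of the 8 members with 20 or more counts over the pair, by a median of 0.84 on the log2 scale, while the median over all genes differed by 0.02. The difference was -1.32 for Zfp36 and -1.13 for Dusp1, and 0.07 for Egr1. Without the first aged library the log2 fold change with age was -2.28 for Zfp36, -3.14 for Dusp1, -2.30 for Ier3 and -3.10 for Nr4a1. Without the second it was -0.98, -2.02, -1.30 and -2.11. Egr3, with 0 counts in the first aged library and 2 in the second, had a fitted value of -4.20 that moved to -3.30 and -7.39, and its ratio of counts above is the bounded form. With any 1 of the 4 CLP libraries left out 7 of the 10 were called, and no call of the 7 was lost. A fit of the 4 CLP libraries alone called 2 of the 10, Egr1 and Ier2. Members with 20 or more counts also moved together between the duplicates of other aged groups. The second library was higher for 10 of 10 in MPP2 and in MPP4, 9 of 10 in MPP3 and 8 of 10 in HSCs. It was lower for 8 of 10 in MPP1, 6 of 7 in MEPs and 6 of 8 in GMPs. The median differences in these groups ran from -0.38 in MEPs to 0.25 in MPP3. In young HSCs, MPP1, MPP2 and MPP4 the members split 5 to 5. In the other young groups the second library was higher for 8 of 10 in MPP3, 5 of 7 in GMPs and 5 of 8 in MEPs. It was lower for 7 of 10 in young CLPs. The median differences in these 4 groups ran from -0.08 in CLPs to 0.34 in GMPs.

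**Figure D2:**
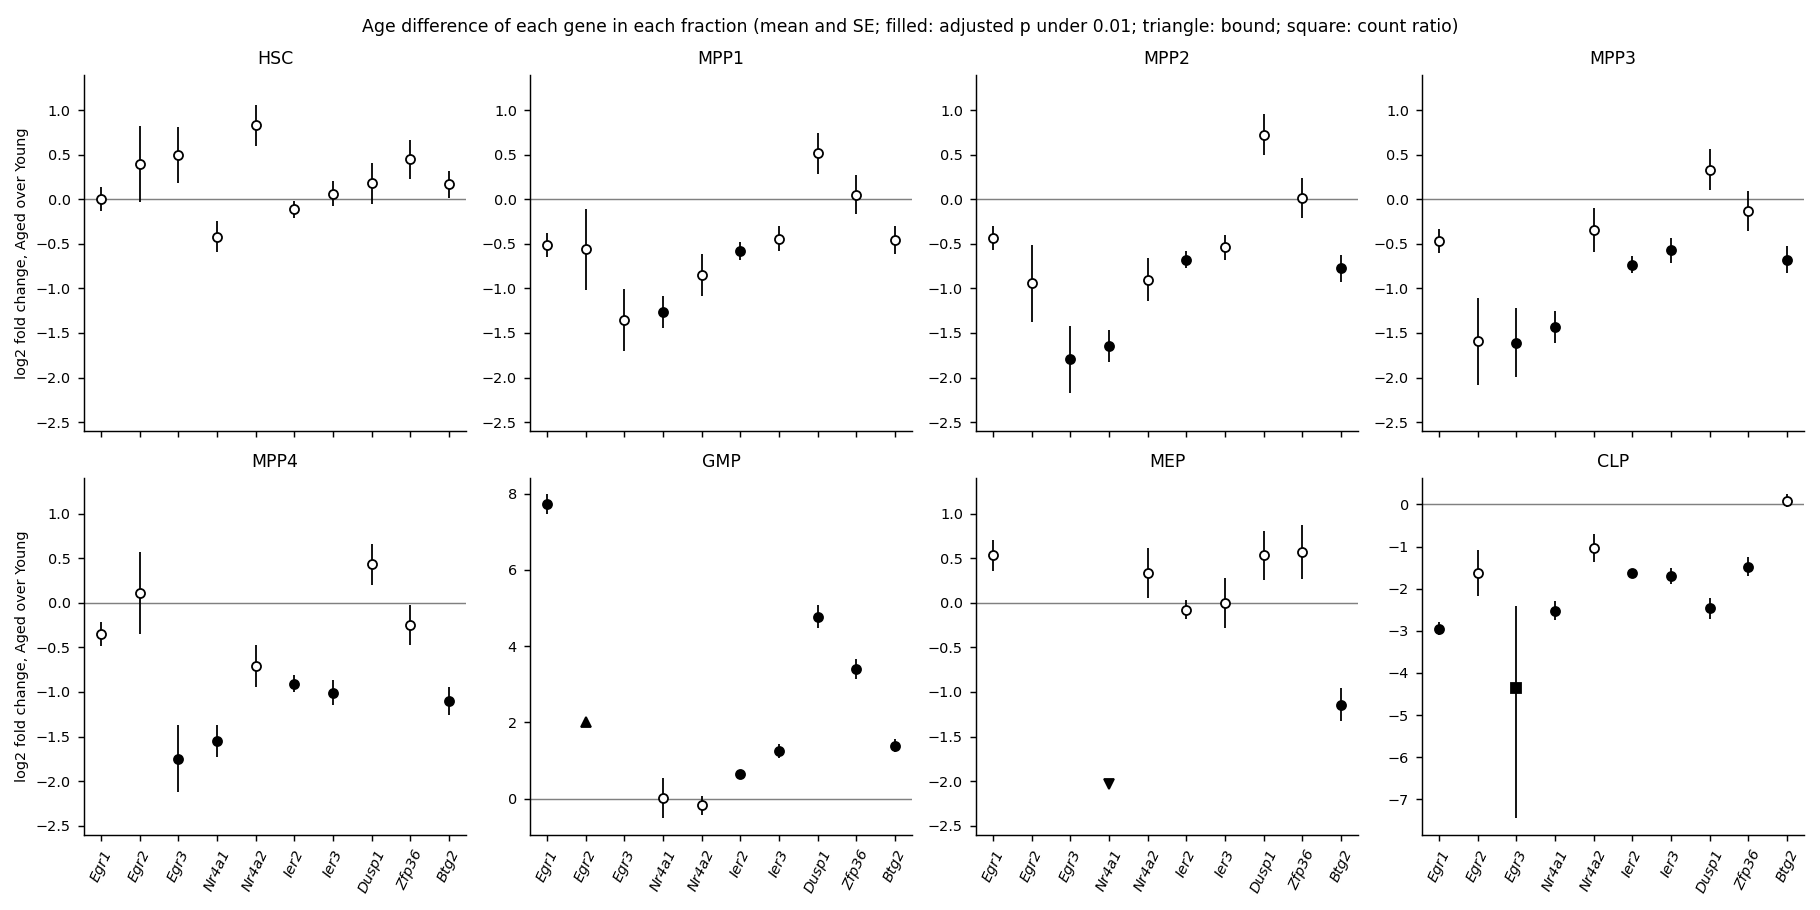
Log2 fold change of Aged over Young (vertical axis; the GMP and CLP panels have their own scales) for the 10 genes (horizontal axis) in each fraction, with bars for 1 SE; filled marks have an adjusted p under 0.01, triangles are bounds against a group at 0 counts, and the square in CLPs is a ratio of counts with its 95% counting interval, and genes with no mark had too few counts at both ages for a fold. In the 4 MPP panels Nr4a1, Egr3 and Ier2 lie below 0 and Dusp1 above it. Egr1, Dusp1 and Zfp36 lie far above 0 in GMPs and below 0 in CLPs.

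In MPPs the changes were lower levels in Aged of a few members. Members that fell numbered 2 (MPP1), 4 (MPP2), 5 (MPP3) and 5 (MPP4) of the 10, and 0 rose in any of them, where 2.09%, 3.31%, 5.79% and 6.27% of all genes tested fell and 4.71%, 4.49%, 8.14% and 10.3% rose. Nr4a1 and Ier2 fell in all 4, Btg2 and Egr3 in MPP2, MPP3 and MPP4, and Ier3 in MPP3 and MPP4. The median log2 fold change of the 10 genes was -0.54, -0.73, -0.62 and -0.81 in MPP1 to MPP4.

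Nr4a1 had the largest falls among the abundant members. It was at 1403 and 1270 CPM in young MPP1 and at 582 and 529 in aged MPP1 (log2 fold change -1.27, SE 0.18, adjusted p = 6.77e-05). In MPP2 the values were 908 and 830 against 250 and 306 CPM (-1.64, SE 0.18, adjusted p = 6.37e-06). In MPP3 they were 846 and 919 against 273 and 381 CPM (-1.43, SE 0.18, adjusted p = 1.07e-05). MPP4, where young cells had the highest level of this gene, went from 2325 and 1789 CPM to 658 and 743 (-1.55, SE 0.18, adjusted p = 2.73e-06). In each MPP fraction both aged libraries lay below both young ones, which with 2 libraries per age also occurred for members not called.

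The fall of Ier2 was smaller and had the smallest errors. In MPP4 it was at 1332 and 1376 CPM in Young and at 703 and 742 in Aged (log2 fold change -0.91, SE 0.10, adjusted p = 8.65e-07), and in MPP1 to MPP3 the log2 fold change was between -0.58 and -0.73. Btg2, the antiproliferative gene, was at 691 and 698 CPM in young MPP4 and at 311 and 336 in aged MPP4 (-1.10, SE 0.15, adjusted p = 1.64e-05). Ier3 was at 528 and 526 CPM and then at 259 and 265 there (-1.01, SE 0.14, adjusted p = 1.79e-05). In young cells Btg2 and Ier3 were highest in MPP4.

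Egr3 had few counts in MPPs, 39 to 87 in the young and 15 to 40 in the aged libraries. Its log2 fold change was -1.80 in MPP2 (SE 0.37, adjusted p = 0.00346), -1.61 in MPP3 (SE 0.39, adjusted p = 0.00570) and -1.75 in MPP4 (SE 0.37, adjusted p = 0.00205). Without any 1 of the 4 libraries its call was lost in MPP3 and MPP4, and without any but the second young library in MPP2. Ier3 in MPP3 also lost its call without any 1 library (adjusted p = 0.0216 to 0.0639), and so did Btg2 in MPP2 (0.0127 to 0.0242). Btg2 in MPP3 lost its call without the second young (0.0334) or the first aged library (0.0528). Counts of members called were as low as 2 in MPP2 and in MPP3 with a library left out.

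Egr1 and Dusp1 had values on opposite sides in MPPs and did not pass edgeR's test over all libraries. Egr1 was at 2301 and 2343 CPM in young MPP1 and at 1657 and 1591 in aged MPP1, with log2 fold changes of -0.52, -0.43, -0.47 and -0.35 in MPP1 to MPP4 and adjusted p-values of 0.0124, 0.0318, 0.0139 and 0.0586. Dusp1 was at 782 and 812 CPM in young MPP2 and at 1309 and 1327 in aged MPP2, with log2 fold changes of 0.52, 0.73, 0.33 and 0.43 and adjusted p-values of 0.162, 0.0375, 0.334 and 0.187. Zfp36 was within 0.25 of 0 on the log2 scale in all 4, for example at 1615 and 1681 CPM in young and 1604 and 1728 in aged MPP2. The Egr1 and Dusp1 differences in MPP1 and MPP2 passed when the 4 libraries of the fraction were fitted alone, as did that of Dusp1 in MPP4 (adjusted p = 0.0080). DESeq2's test called Egr1 lower in all 4 MPP fractions (adjusted p = 0.00018, 0.00132, 0.000125 and 0.00307), and edgeR's test did so in MPP1 and MPP3 without the filter on low counts or with library totals.

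In HSCs 0 of the 10 genes were called in edgeR's test, where 5.40% of all genes were called, 2 of the 10 had an unadjusted p under 0.05, and DESeq2's test called 1 (Nr4a2). Egr1 was at 4350 and 4074 CPM in young and at 3868 and 4557 in aged HSCs, a log2 fold change of 0.00 with an SE of 0.13. Nr4a2 had 16.3 and 19.0 CPM in Young and 29.5 and 33.4 in Aged (0.83, SE 0.23, adjusted p = 0.0226, and 0.00237 in DESeq2's test). Nr4a1 was at 1551 and 1442 CPM and then at 1077 and 1165 (-0.42, SE 0.18, adjusted p = 0.146). The 2 NR4A genes therefore had values on opposite sides in HSCs, and neither passed in edgeR's test.

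In MEPs, where all members were low, 2 of the 10 fell and 0 rose, where 11.7% of all genes fell and 9.08% rose. Btg2 went from 21.4 and 31.7 CPM to 11.8 and 12.2 (log2 fold change -1.14, SE 0.19, adjusted p = 7.61e-05). Nr4a1 went from 12 and 20 counts to none in either aged library, at least 4.09-fold lower against a floor of 3 counts per library (adjusted p = 0.00131), and the call was lost without either aged library (0.0139 and 0.0178). Egr1 was at 10.9 and 7.18 CPM in Young and at 14.9 and 11.4 in Aged (0.53, SE 0.17, adjusted p = 0.0232), a far smaller difference than in GMPs.

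The age difference of each of the 10 genes differed among the 8 fractions in the joint test of 7 contrasts (adjusted p from 8.14e-14 for Egr1 to 0.00156 for Egr3), where 34.9% of all genes tested did so. Set against the mean of the other 7 fractions, 23 of the 80 member and fraction pairs departed from it, 6 of them in GMPs (20.0% of all genes), 6 in CLPs (17.5%), 4 in MPP4 (5.99%), 2 in HSCs (2.46%), 2 in MEPs (17.6%) and 1 each in MPP1 (1.05%), MPP2 (0.749%) and MPP3 (3.49%). In HSCs these were Nr4a1 and Nr4a2, whose age difference lay 1.77 and 1.36 above that of the other fractions on the log2 scale. For Nr4a1, Egr2 and Egr3 these sizes rest on fitted values in fractions where a group is at 0 counts. With those fractions left out, the departure of Nr4a1 in HSCs was 0.98 (adjusted p = 0.00864), that of Egr2 in CLPs was no longer called (-1.11, adjusted p = 0.165), and 25 pairs were called, Egr3 in HSCs and CLPs and Nr4a1 in CLPs being added. The joint test then no longer passed for Egr2 (adjusted p = 0.0926), which left 9 of the 10. The mean of the other fractions holds the large GMP and CLP differences, and for Egr1 the 4 MPP departures of -0.91 to -1.10 rest on it in part.

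Other genes of the same response were counted in lists chosen for their role. Of 7 AP-1 genes (Fos, Fosb, Fosl1, Fosl2, Jun, Junb and Jund), 4 rose in GMPs and 0 fell, and 4 fell in CLPs and 0 rose. Fos, the partner of Jun in the AP-1 dimer, was at 17.2 CPM in young and 722 in aged GMPs, and at 2343 and 549 in CLPs. In MEPs 4 AP-1 genes rose, among them Fos from 0 to 76.3 CPM and Jun from 21.4 to 132, while 0 of the 10 members did. Of 35 other early response genes, 18 fell in CLPs, 22 fell and 1 rose in MPP4, and 8 rose and 2 fell in GMPs. Of all genes tested, 9.93% rose and 8.97% fell in GMPs and 5.71% rose and 4.73% fell in CLPs. The shares were 9.08% and 11.7% in MEPs and 10.3% and 6.27% in MPP4. Among the falls in MPP4 were Socs3, an inhibitor of cytokine signalling, from 384 to 133 CPM, and Per1, a clock gene, from 51.4 to 19.2.

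Of 20 genes of upstream kinases, factors and inhibitors, at most 3 rose and 3 fell in any fraction. The most were called in MPP4 (3 rose, 2 fell) and in MEPs (2 rose, 3 fell), 25% of the list in each. Of all genes tested, 10.3% rose and 6.27% fell in MPP4 and 9.08% rose and 11.7% fell in MEPs. Spry2, an inhibitor of the Ras and MAP kinase pathway, fell in CLPs from 5.67 to 1.67 CPM and in MPP4 from 14.3 to 6.00. The gene of serum response factor, Srf, rose in MEPs from 34.7 to 55.2 CPM. The medians of this list stayed between -0.27 and 0.08 in the 8 fractions.

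**Figure D3:**
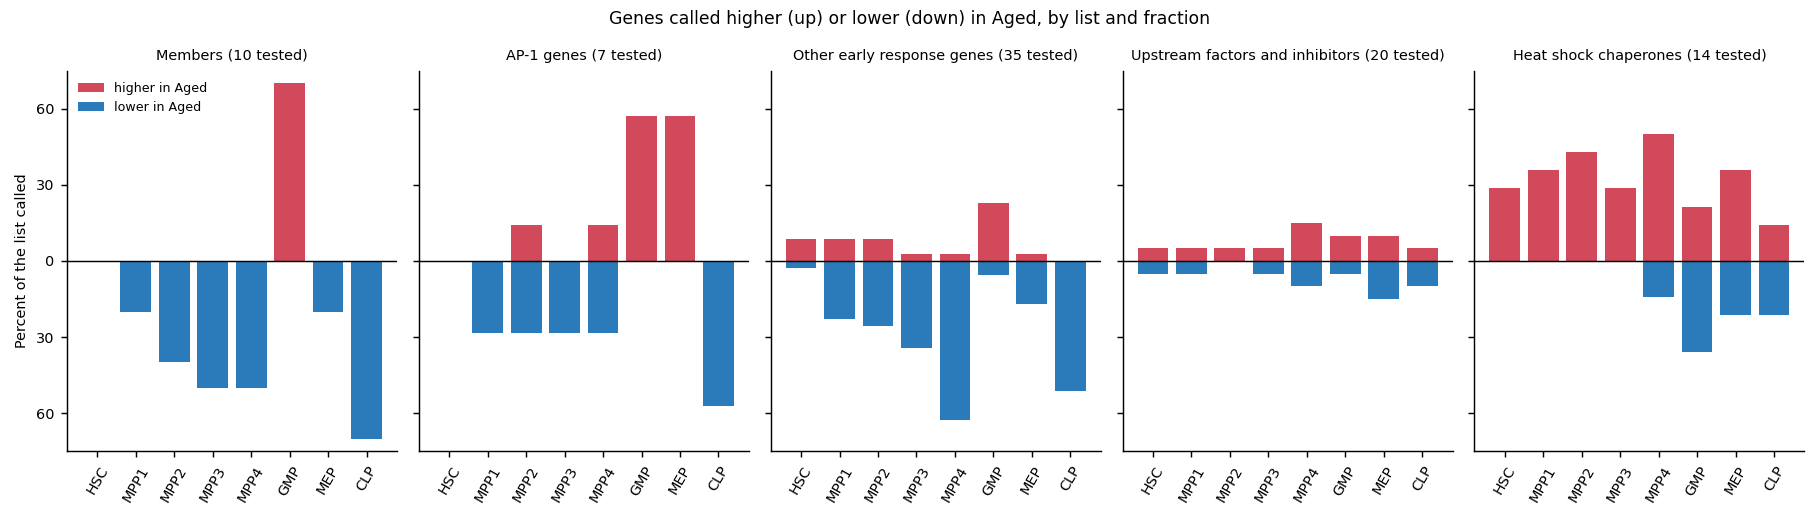
Percent of each list (vertical axis) called higher (red, up) or lower (blue, down) in Aged at an adjusted p under 0.01, in the 8 fractions (horizontal axis), for the 10 members, 7 AP-1 genes, 35 other early response genes, 20 upstream factors and inhibitors and 14 heat shock chaperones. In GMPs 7 of 10 members and 4 of 7 AP-1 genes rose, in CLPs the same numbers fell, and in MEPs 4 AP-1 genes and 0 members rose. Of all genes tested, 9.93% rose in GMPs, 4.73% fell in CLPs and 9.08% rose in MEPs.

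Heat shock chaperone genes, which also respond to handling of cells, moved with age in part. The near-identical pair Hspa1a and Hspa1b, whose reads cannot be told apart with certainty, rose in 7 of 8 fractions. Hspa1a was at 6.31 CPM in young and 565 in aged GMPs, at 5.64 and 165 in MEPs and at 3.17 and 31.3 in HSCs. In GMPs the rise of these genes stood beside that of Egr1, Dusp1 and Zfp36. In HSCs it stood beside no called member and in MPPs beside falls of Nr4a1 and Ier2. Over the list of 14, 3 rose and 5 fell in GMPs and 2 rose and 3 fell in CLPs. In MPP4, 7 rose and 2 fell, and in MEPs 5 rose and 3 fell. In HSCs 4 rose, in MPP1 5, in MPP2 6 and in MPP3 4, and 0 fell in these. Of all genes, 9.93% rose and 8.97% fell in GMPs, 5.71% and 4.73% in CLPs and 10.3% and 6.27% in MPP4. The shares were 9.08% and 11.7% in MEPs, 4.71% and 2.09% in MPP1, 4.49% and 3.31% in MPP2 and 8.14% and 5.79% in MPP3. In HSCs 5.40% were called in either direction. The part of the heat shock response or of handling in the members' changes was not tested.

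Sums of markers of other cells also differed with age in the fractions where members were called. In CLPs the sum of 5 basophil and mast cell markers was 1737 and 1785 CPM in Young and 8.26 and 12.0 in Aged, with Prss34 at 0 in Aged, that of 6 neutrophil markers 579 and 590 against 87.6 and 157, that of 6 macrophage markers 155 and 168 against 21.5 and 28.2, and that of 7 B cell markers 2239 and 2305 against 989 and 1009. The 6 erythroid markers, mostly the near-identical copies Hba-a1 and Hba-a2, summed to 1369 and 1417 CPM in young CLPs, to 521 in the first and to 72.5 in the second aged library, the one in which 6 of 8 members were also lower. The sum of 4 plasmacytoid dendritic cell markers was 2923 and 2925 in young and 4190 and 5791 in aged CLPs. In GMPs 6 erythroid markers summed to 771 and 841 CPM in Young and 30.5 and 81.9 in Aged, 5 basophil and mast cell markers to 645 and 656 against 270 and 351, and 6 neutrophil markers to 293 and 294 against 111 and 146, while C1qa, C1qb and C1qc were at 0 in aged GMPs. The sum of 5 T and NK cell markers, nearly all of it Nkg7, was 686 and 736 CPM in young and 984 and 1057 in aged GMPs, and that of 4 megakaryocyte and platelet markers was 35.6 and 38.1 in young and 111 and 158 in aged CLPs. In MPP3, neutrophil markers summed to 1149 and 1155 CPM in Young and 187 and 254 in Aged, and erythroid markers to 1060 and 1092 against 207 and 228. In MPP1 erythroid markers went from 363 and 423 CPM to 174 and 175. In MPP2 they went from 914 and 956 CPM to 209 and 222 and neutrophil markers from 690 and 736 to 269 and 275. In MPP4 erythroid markers went from 356 and 434 CPM to 111 and 115 and macrophage markers from 56.7 and 62.6 to 25.5 and 26.3. In MEPs the 7 B cell markers went from 152 and 155 CPM to 0.861 and 1.22. The part of such cells in the members' differences was not tested. In sorted populations fewer cells of a type, less RNA per cell and expression by the sorted progenitors themselves cannot be told apart.

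The antigens of the gates were read as a check of the labels. Il7r was at 158 CPM in young and 195 in aged CLPs, Fcgr3 at 481 and 493 in GMPs, Flt3 at 1063 and 732 in MPP4, and Slamf1 (CD150) at 53.9 and 74.1 in HSCs. Cd34, which the gate of HSCs excludes at the surface, was at 204 and 179 CPM there, against 0.351 and 0.629 in MEPs. Ly6a (Sca-1) rose in CLPs from 35.2 to 214 CPM and Fcgr3 fell there from 23.3 to 2.94. Kit fell in MPP1, MPP2 and MPP4, for example from 835 to 591 CPM in MPP4, and Cd48 rose in all 4 MPP fractions, for example from 94.7 to 153 CPM in MPP2, and also in MPP1, which the gate sets as CD48-.

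**Figure D4:**
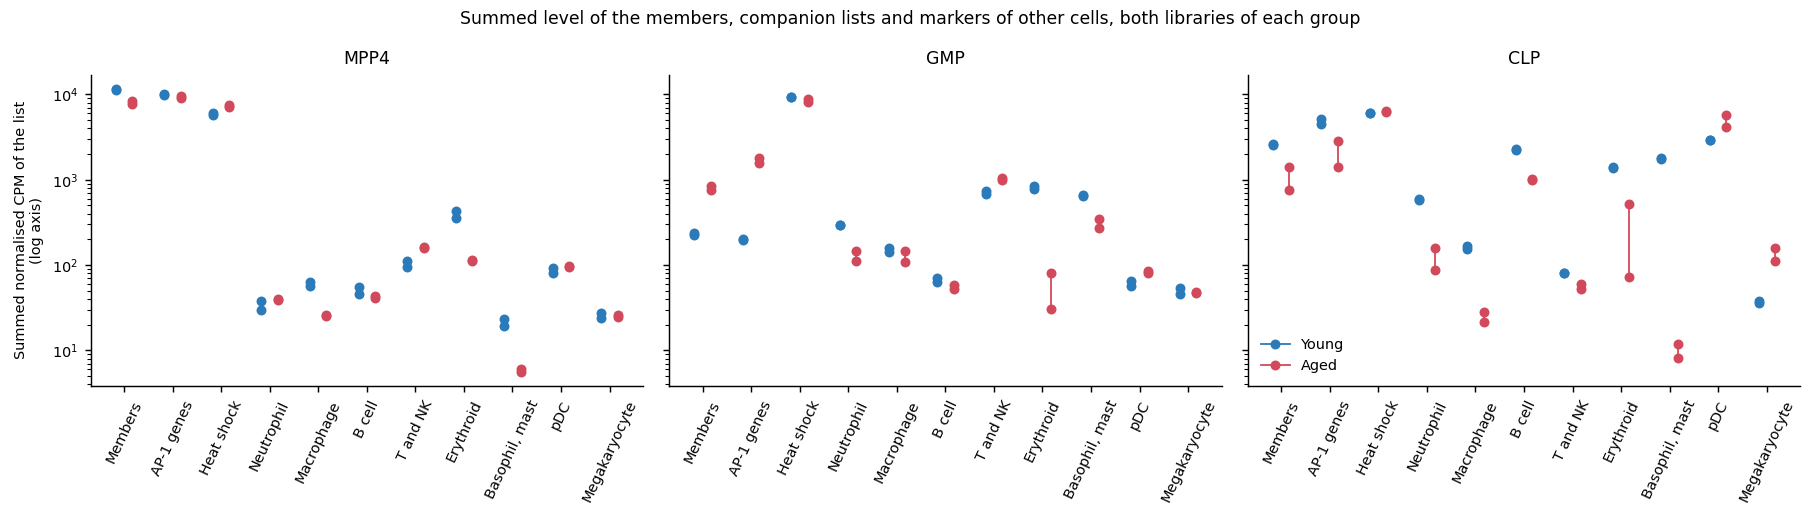
Summed normalised CPM (vertical log axis) of the 10 members, of AP-1 and heat shock genes and of marker lists of other cells (horizontal axis; pDC, plasmacytoid dendritic cell) in MPP4, GMPs and CLPs, with both libraries of each group as joined points, Young in blue and Aged in red. In GMPs the members and the AP-1 genes are higher in Aged while neutrophil, erythroid and basophil markers are lower, and in CLPs all of these are lower in Aged.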

How the data were processed

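RNA of 8 sorted marrow fractions was sequenced at 2 ages, 2 libraries per group as the labels number them. The authors amplified total RNA with a low-input kit (SMARTer Ultra Low Input), aligned single reads to mm10 with TopHat2 2.0.13 and Bowtie2 2.1.0, and deposited raw counts per gene made with StringTie. These counts were made without molecular identifiers, PCR copies count as reads, and intervals cover counting error only. The 9 other deposited tables, the authors' normalized values and their own comparisons, were not used. Of the 24421 symbols, 27 had become dates and held 0.188% of the counts.

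From the counts, 1 edgeR 4.0.16 quasi-likelihood fit (R 4.3.3, TMM factors 0.807 to 1.11, filterByExpr, 1 mean per group, 16 residual degrees of freedom) covered all 32 libraries and 14154 genes. Tests were two-sided, p-values were adjusted by Benjamini-Hochberg over all genes within each contrast, and genes under 0.01 were called. The standard error is the log2 fold change divided by the root of F, and it can fall below the counting error where a group has few counts. The biological coefficient of variation was 0.113. A count of 0 allows up to 3 counts, 0.186 to 0.281 CPM, and folds against a group at 0 use that floor per library. The tests were checked on simulated counts. Exon lengths came from GENCODE M21. DESeq2 1.42.0 and other settings were tried as alternatives.

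The 10 genes, the companion and marker lists and the tests were chosen with earlier results of these data known. All 10 are named in every fraction. Of the other lists, at most the 4 genes with the largest called change in a fraction are named, apart from the gate antigens and markers, and Srf, Per1 and Fos were named within that rule.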

Additional observations from a re-analysis of the deposited data

Results flagged for a closer look

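The results here were singled out because an age difference was not the same in all fractions, by a test of the difference itself. In the joint test of the 8 fractions (edgeR's quasi-likelihood test, Benjamini-Hochberg over 14154 genes) the adjusted p was 8.14e-14 for Egr1, 2.94e-09 for Dusp1, 5.16e-09 for Ier2, 5.6e-08 for Zfp36, 2.63e-07 for Btg2, 6.27e-07 for Ier3, 0.000106 for Nr4a1, 0.00111 for Egr2, 0.00117 for Nr4a2 and 0.00156 for Egr3. Without the second young HSC library 9 of the 10 passed, and also 9 with the fractions in which a group of a gene is at 0 counts left out, Egr2 then being at 0.0926, Egr3 at 0.00124 and Nr4a1 at 0.000191.

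The age difference of a fraction was then set against the mean of the other 7, on the log2 scale. In GMPs it lay above that mean by 8.32 for Egr1, 4.74 for Dusp1, 3.51 for Zfp36, 1.94 for Btg2, 1.84 for Ier3 and 1.31 for Ier2. In CLPs the departures were -3.87 for Egr1, -3.53 for Dusp1, -2.68 for Egr2, -2.07 for Zfp36, -1.53 for Ier3 and -1.27 for Ier2. In HSCs they were 1.77 for Nr4a1 and 1.36 for Nr4a2, and neither gene passed edgeR's test of the age difference within HSCs, while Nr4a2 passed DESeq2's (adjusted p = 0.00237). The sizes for Nr4a1 and for Egr2 rest on fitted values over groups at 0 counts. With those fractions left out Nr4a1 in HSCs was at 0.98 (adjusted p = 0.00864) and Egr2 in CLPs at -1.11 (0.165, not called). In MPP4 they were -0.91 for Egr1, -0.90 for Btg2, -0.73 for Ier3 and -0.45 for Ier2. For Egr1 they were -1.10 in MPP1, -0.999 in MPP2 and -1.04 in MPP3. In MEPs Ier2 lay 0.50 above the mean and Btg2 at -0.95. These 23 pairs share the same libraries and are not independent of each other.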

How the results depend on the processing

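The number of members called was 1 in HSCs, 6 in MPP1 and 7 in MPP2 with DESeq2's test. It was 7 in MPP1, 8 in MPP2, 0 in MEPs and 2 in CLPs when the 4 libraries of a fraction were fitted alone, a fit with 2 residual degrees of freedom. With 1 library left out at a time, a lone library being taken to vary like the other groups, it was 2 to 3 in MPP2, 2 to 4 in MPP3 and 1 to 3 in MEPs. With all other settings and fractions these counts stayed within 1.5 times. Replicate numbers showed no pairing of young with aged libraries: deviations of same-numbered young and aged libraries correlated at -0.28 to 0.15. Over all 120 pairs of groups, those of the same age included, the correlations were -0.28 to 0.23 with a median of 0.01. These are correlations over many genes, and a sort shared by fractions of 1 age was not tested for the members. The replicate block left the counts at 0, 2, 4, 5, 5, 7, 2 and 7 in HSCs, MPP1 to MPP4, GMPs, MEPs and CLPs. Another 8 of the 14 results, among them the 23 departing pairs (20 to 28 with a library left out, 24 with the replicate block, 25 with fractions at 0 counts in a group left out, chosen after seeing the data), stayed within 1.5 times.

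Signs turned only for differences that were not called. Egr1 in HSCs was at -0.014 without a filter, -0.00203 with the replicate block, -0.048 with library totals (chosen after seeing the data) and -0.037 in its own 4 libraries, and ranged from -0.13 to 0.075 with a library left out. Ier3 in HSCs was at -0.059 with offsets for GC content and length, -0.058 with the replicate block added, and -0.092 to 0.16 with a library left out. Zfp36 in MPP2 was at -0.00205 with DESeq2 size factors, -0.00205 with DESeq2's test, -0.0199 without a filter, -0.036 with library totals, and -0.017 to 0.090 with a library left out. Nr4a1 in GMPs was at -0.159 with the offsets, -0.16 with the block added, and -0.12 to 0.13 with a library left out. Ier3 in MEPs was at -0.040 with DESeq2 size factors, -0.042 with its test, -0.079 without a filter, -0.0028 with library totals, -0.00973 in its own 4 libraries, and -0.25 to 0.23 with a library left out. The range with a library left out was -0.32 to 0.78 for Egr2 in MPP4, -0.54 to 0.098 for Nr4a2 in GMPs, -0.090 to 0.79 for Nr4a2 in MEPs and -0.28 to 0.37 for Btg2 in CLPs. The cause of these changes was not tested. With library totals the median of all genes moved to between -0.11 and 0.016. Egr2 had under 100 counts in every library, and Egr3 in every library but those of HSCs.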

Other observations

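Across the 16 group means of log2 CPM the 10 genes correlated with each other at Pearson's r of 0.39 to 0.98, with a median of 0.88 over 45 pairs, a description in which the groups share libraries, staining panels and depth. Among 9550 other genes that averaged 10 CPM or more, those most like a member included Junb for Egr3 (r = 0.976) and Ier2 (0.977), Fosb (0.981) and Atf3 (0.962) for Dusp1, Ppp1r15a for Egr1 (0.969) and Ptgs2 for Ier3 (0.988). For Nr4a1 the 3 closest were Gcnt2, Pnrc1 and Cuedc1 (0.987, 0.985 and 0.984), for Btg2 Fbxo32, Bcl9l and Fam65b (0.980, 0.977 and 0.973), and for Zfp36 Unc5a, Myof and Haghl (0.981, 0.979 and 0.978). For Nr4a2 the closest was Ets2 (0.935), the lowest of the 10 best values.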
